A study of Mus musculus with 20 samples.

Results

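The genes described here encode the constitutive proteasome, the particle that every cell uses to degrade proteins tagged with ubiquitin. They were chosen by symbol: every gene of the MG_U74Av2 array named Psma, Psmb, Psmc or Psmd with a number, other than Psmb8, Psmb9 and Psmb10, the subunits of the immune-inducible variant. The rule took 34 of the 8251 genes that the array reads under a single symbol, through 44 probe sets, and used no measured value. They comprise 7 outer-ring (alpha) and 7 inner-ring (beta) genes of the core, 9 genes of the base and 8 of the lid of the regulatory cap, and 3 chaperones of cap assembly. Intensities were measured on 20 arrays of female mice aged 32 to 34 weeks, 5 per group: quadriceps and left ventricle, each from C57BL/6 and from SJL/J mice. C57BL/6 mice carry normal dysferlin, a protein that reseals tears of the muscle membrane, and no further allele or treatment is labelled in either strain. SJL/J is an inbred strain with a natural in-frame deletion of 171 base pairs in the dysferlin gene, which removes 57 amino acids and leads to a slow limb muscle disease. The comparison has no C57BL/6 mice with the deletion and no SJL/J mice without it, so strain and dysferlin cannot be told apart. The protocol text of the SJL/J quadriceps samples speaks of left ventricle, whereas their source and title give quadriceps.

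The proteasome consists of a barrel of stacked rings and a cap on its ends. The alpha rings gate the entrance, and 3 of the beta subunits (Psmb5, Psmb6 and Psmb7) cut peptide bonds. The cap base holds a ring of ATPases (Psmc1 to Psmc6) that unfolds substrates, together with the large scaffold subunits Psmd1 and Psmd2 and the ubiquitin receptor Psmd4. The cap lid holds Psmd14, which cuts the ubiquitin chain off the substrate, and a set of structural subunits. In skeletal muscle this system carries much of the breakdown of contractile proteins during wasting, and in heart it removes damaged proteins. When proteasome activity falls, the transcription factor Nfe2l1 raises many subunit genes together through antioxidant response elements.

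Promoter sequences were looked up because genes of one particle might share such an element. RefSeq promoter windows (assembly GRCm38.p6, from 250 bases before to 50 after the start) were matched by gene identifier for 28 of the 34 genes. The element core, TGACNNNGC on either strand, was found in the windows of 5 of the 28 genes (17.9%), namely Psmb5, Psmb6, Psmc6, Psmd12 and Psmd9, against 17.2% of the tested genes with a window and 14% of all genes with one. The CCAAT box was found in 39.3% of the 28 genes and in 42.7% of the tested genes, and TATAAA in 10.7% and 10.1%, both searched on either strand. A match is a run of letters and says nothing of binding. The windows of Psmb6, Psmc6 and Psmd12 are printed because their transcripts differed between the strains in left ventricle, Psmb6 being lower and the other two higher in SJL/J. Capitals mark the element core, which in Psmc6 and Psmd12 lies on the opposite strand. The window of Psmd6, the gene with the largest tissue difference, follows with its TATAAA in capitals. They lie at chr11:70525107-70525406 (plus strand), chr14:45329574-45329873 (plus strand), chr11:107479278-107479577 (plus strand) and chr14:14120896-14121195 (minus strand), and each is written 5′ to 3′.
Psmb6: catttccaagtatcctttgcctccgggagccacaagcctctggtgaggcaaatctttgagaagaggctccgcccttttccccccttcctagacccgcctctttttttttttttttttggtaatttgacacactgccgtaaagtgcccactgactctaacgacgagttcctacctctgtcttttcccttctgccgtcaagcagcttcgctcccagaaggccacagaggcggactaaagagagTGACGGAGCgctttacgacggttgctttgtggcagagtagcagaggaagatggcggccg
Psmc6: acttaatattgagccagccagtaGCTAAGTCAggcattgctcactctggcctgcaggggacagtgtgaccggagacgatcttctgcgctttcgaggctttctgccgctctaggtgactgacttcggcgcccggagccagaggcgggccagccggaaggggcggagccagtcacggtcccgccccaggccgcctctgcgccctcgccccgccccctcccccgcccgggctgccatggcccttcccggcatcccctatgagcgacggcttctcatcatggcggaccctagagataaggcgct
Psmd12: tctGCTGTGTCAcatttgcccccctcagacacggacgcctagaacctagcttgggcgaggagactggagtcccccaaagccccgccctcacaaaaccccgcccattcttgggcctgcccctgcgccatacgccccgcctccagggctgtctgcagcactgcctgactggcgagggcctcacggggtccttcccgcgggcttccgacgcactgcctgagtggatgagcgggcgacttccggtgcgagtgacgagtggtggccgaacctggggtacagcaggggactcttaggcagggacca
Psmd6: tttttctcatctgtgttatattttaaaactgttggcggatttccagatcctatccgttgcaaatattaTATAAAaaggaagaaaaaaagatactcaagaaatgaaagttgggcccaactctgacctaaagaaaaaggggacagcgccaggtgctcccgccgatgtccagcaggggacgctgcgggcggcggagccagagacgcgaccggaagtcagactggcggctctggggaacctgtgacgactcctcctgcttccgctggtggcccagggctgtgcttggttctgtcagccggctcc

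Several arrays did not match their label alone, and this bears on what follows. Hybridisation times divided the arrays into 5 runs, and 1 of them, called run 3 here, held arrays of 3 groups: SJL/J quadriceps 1 and 5, SJL/J left ventricle 1 and C57BL/6 left ventricle 5. The summed intensity of 7 heart muscle markers was 43016 and 50169 on SJL/J quadriceps arrays 1 and 5, against 515.8, 11800.2 and 872.8 on SJL/J quadriceps arrays 2 to 4. It was 341.2 to 7039 in C57BL/6 quadriceps and 40532 to 55166 in left ventricle. SJL/J quadriceps array 3 thus also lay above every C57BL/6 quadriceps array. The summed intensity of 10 fast limb muscle markers was 16515 and 26386 on the left ventricle arrays of run 3, against 629.3 to 3167 on the other 8 left ventricle arrays and 53170 to 213630.4 in quadriceps. No marker of either list was at the floor on every array of a group, and results are given with and without the 4 arrays of run 3. RNA integrity differed as well: the ratio of 5′ to 3′ Gapdh signal was 0.697 to 0.866 in C57BL/6 and 0.101 to 0.470 in SJL/J left ventricle, and 0.487 to 1.06 in C57BL/6 and 0.268 to 0.663 in SJL/J quadriceps. The arrays had trimmed means of 199.4 to 199.9 and median intensities of 57.5 to 77.0, and the transcript of dysferlin itself was not analysed here.

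Of the 34 genes, 32 were bright enough to be tested, meaning that their mean log2 intensity exceeded that of a signal of 68.8, the array median, in at least 1 group. All differences below are on the log2 scale with their standard error (SE), from limma fitted to 5392 genes, and a gene was called where the Benjamini-Hochberg adjusted p was below 0.05. The genes left out were Psmc4, an ATPase of the base, at 8.2 to 63.4 over the 20 arrays, and Psmd2, a scaffold of the base, at 5.7 to 41.4. Psmd10, a cap chaperone also known as gankyrin, had group means of 27.4 to 74.7 and passed this filter through SJL/J quadriceps alone. The probe sets read for Psma3, Psmb4, Psmb5, Psmb7, Psmc3 and Psmd12 carry names that mark them as shared between related transcripts, and the name of that of Psmd9 marks relaxed rules of probe selection, so their values are uncertain. Levels of different genes are not set against each other, since probe sets differ in brightness.

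**Figure D1:**
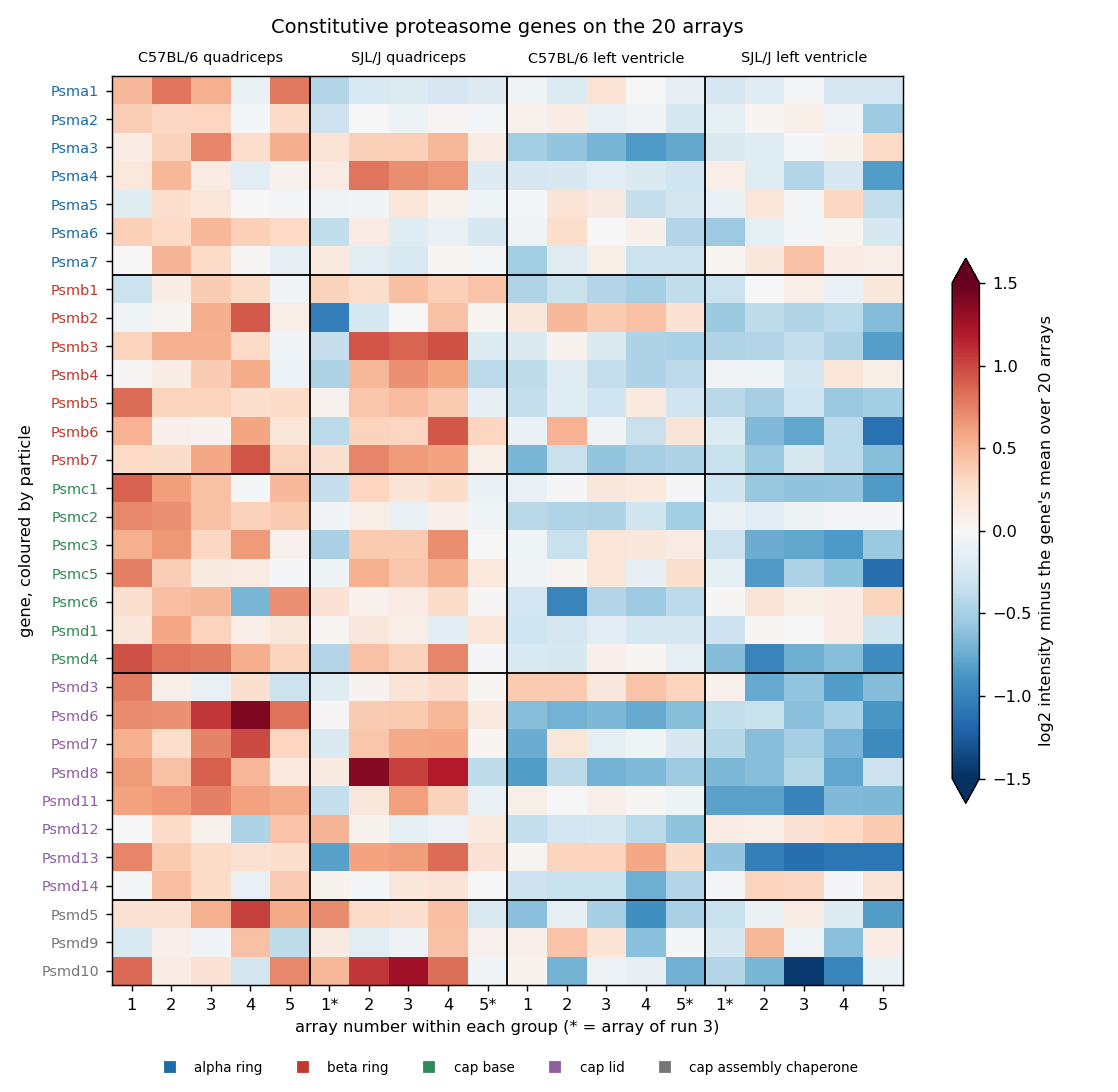
Each cell is the log2 intensity of a tested proteasome gene on 1 array minus that gene's mean over the 20 arrays, with genes in rows by particle, arrays in columns by group, and asterisks on the arrays of run 3. The quadriceps columns are mostly above and the left ventricle columns mostly below the mean, and SJL/J quadriceps arrays 1 and 5 are paler than arrays 2 to 4 in many rows.

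The first comparison asks how the particle's transcripts differ between the normal tissues. In C57BL/6 mice the constitutive proteasome genes were lower in left ventricle than in quadriceps: 22 of the 32 tested genes were called lower and 0 higher, at 68.8% against 19.9% of all tested genes called lower and 30.6% called higher. The median difference of the 32 was -0.53, against 0.14 for all tested genes. The fall covered every particle, with 4 of 7 alpha, 5 of 7 beta, 6 of 7 tested base, 6 of 8 lid and 1 of 3 chaperone genes lower. For 15 of the 32 genes every left ventricle array lay below every quadriceps array, where 14.7% of all tested genes did so. No run held C57BL/6 arrays of both tissues, so tissue and run cannot be told apart in this comparison. In bulk tissue, fewer cells of a type and less RNA per cell cannot be told apart, and intensities are relative to the other transcripts on the array.

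The largest difference belonged to Psmd6, a structural subunit of the lid. It read 2599.9, 2559.9, 3319, 4196 and 2796 on C57BL/6 quadriceps arrays 1 to 5 and 1021, 978, 997, 949 and 1025 on left ventricle arrays 1 to 5. The difference was -1.61 ± 0.14 (limma adjusted p = 2.56e-06), or 3.06-fold lower, with no overlap. Psmd8, a lid subunit needed for the lid to join the base, read 575, 500.2, 687, 519.9 and 407 in quadriceps and 207, 280.1, 225, 234 and 252 in left ventricle (-1.15 ± 0.15, limma adjusted p = 5.74e-05). The groups of Psmd8 were also apart. Psmd7, the inactive partner of Psmd14, read 1245, 1036, 1449.9, 1717 and 1076 in quadriceps and 515, 982, 778, 828 and 732 in left ventricle (-0.77 ± 0.19). Psmd11, which braces the lid against the core, read 1149.9, 1192, 1281, 1152 and 1109 and 804, 755, 797, 765 and 721 (-0.61 ± 0.10). Psmd14 read 578, 810.0, 716, 546 and 772 and 479, 470.4, 469, 358 and 436 (-0.62 ± 0.15), and for these 3 genes too every quadriceps array was the higher. Psmd12, a lid scaffold, had a small difference of -0.45 ± 0.16 with overlapping groups, at 839, 1031, 886, 613 and 1141 in quadriceps and 661, 694, 702, 636 and 557 in left ventricle. The lid subunits Psmd3 and Psmd13 were not called, with differences of 0.21 ± 0.18 and -0.06 ± 0.15. Psmd3 read 433, 269, 234, 297 and 202 in quadriceps and 331, 333, 285, 339.8 and 318 in left ventricle, and Psmd13 read 296, 232, 215, 208 and 214 and 183, 224, 224, 265 and 214.

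Psmc2, an ATPase of the base, read 1522, 1476, 1247, 1168 and 1211 in C57BL/6 quadriceps and 692, 671, 668, 745 and 645 in left ventricle, again without overlap. Its difference was -0.95 ± 0.12 (limma adjusted p = 3.46e-05). The ubiquitin receptor Psmd4 read 1118, 1008, 988, 845 and 729 in quadriceps and 495, 489, 608, 589.8 and 523 in left ventricle, with groups apart and a difference of -0.78 ± 0.14. The ATPase Psmc6 read 2689.7, 3099, 3191, 1412 and 3656 and 1864, 1140.3, 1672, 1560.3 and 1732, a difference of -0.77 ± 0.24 whose groups overlapped through quadriceps array 4. Smaller differences were found for the ATPases Psmc1 (-0.45 ± 0.16) and Psmc3 (-0.42 ± 0.15). Psmc1 read 1119.8, 938, 821, 591 and 845 in quadriceps and 564, 593, 684, 670.2 and 596 in left ventricle, and Psmc3 read 966, 1049, 826, 1041 and 697 and 639, 529.9, 761, 755 and 726. The groups overlapped for both. Psmc5 read 830.1, 633, 538, 537 and 486 and 474, 504, 556, 451 and 580.2 and was the only tested base gene not called (-0.22 ± 0.15). The scaffold Psmd1 was lower (-0.52 ± 0.12), at 1804 ± 257 in quadriceps and 1253 ± 42.2 in left ventricle (SD, n = 5).

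In the core, the alpha subunit Psma3 read 3725, 4376, 5734, 4145 and 5048 in C57BL/6 quadriceps and 2407, 2282, 2121, 1915 and 2025 in left ventricle, a difference of -1.09 ± 0.14 (limma adjusted p = 4.68e-05) without overlap. Its alpha-ring partner Psma1 read 603, 748, 619.6, 399 and 741 and 411, 372, 494, 430.1 and 394 (-0.54 ± 0.17), and quadriceps array 4 fell within the range of the left ventricle arrays. Psma6 read 3022, 2919, 3352, 3029.7 and 2904 and 2285, 2832, 2371, 2497 and 1745 (-0.39 ± 0.14), with a gap between the groups. Psma4 was lower (-0.37 ± 0.13), while Psma2 (-0.30 ± 0.12), Psma5 (-0.11 ± 0.14) and Psma7 (-0.39 ± 0.15) were not called. Psma7 read 970.2, 1367, 1162, 971 and 872 in quadriceps and 668, 849, 1023, 770.1 and 767 in left ventricle. Among the beta subunits that cut peptides, Psmb7, with trypsin-like activity, read 1391, 1371, 1686, 2177 and 1429 in quadriceps and 704, 898, 749.5, 804 and 818 in left ventricle. Its difference was -1.001 ± 0.15 (limma adjusted p = 0.000125), with groups apart. The chymotrypsin-like Psmb5 was lower too (-0.61 ± 0.15), whereas the caspase-like Psmb6, at 728, 536, 526, 764 and 573 and 474, 728, 493, 401 and 579, was not called (-0.24 ± 0.18). Of the structural beta subunits, Psmb1 (-0.50 ± 0.14), Psmb3 (-0.59 ± 0.15) and Psmb4 (-0.55 ± 0.14) were lower, and Psmb2 was not called (0.03 ± 0.18). Psmb1 read 1168, 1577, 1904, 1775 and 1429 in quadriceps and 1071, 1167, 1082, 1037 and 1134 in left ventricle. Psmb4 read 1868, 1985, 2383, 2704 and 1734 and 1406, 1622, 1431, 1333 and 1398, and both it and Psmb1 had non-overlapping groups. Psmb2 read 446, 478, 678, 884 and 501 and 522, 655, 614, 634 and 541, which overlapped fully. Among the chaperones Psmd5 was lower (-1.05 ± 0.18), and Psmd10 (-0.64 ± 0.29) and Psmd9 (0.04 ± 0.21) were not called. Without C57BL/6 left ventricle array 5 of run 3 there were 17 genes lower and 0 higher, where 18.2% and 27.2% of all tested genes were, and the median was -0.52. The chip lot, in which C57BL/6 quadriceps array 4 shares a lot with the left ventricle arrays, left 11 of the calls when fitted as a block, where 2365 of all tested genes were called and 956 were lower. The run as a random block left 10, where 1652 were called and 661 were lower. Markers of other cell types moved with tissue as well: 7 of 8 macrophage, 4 of 5 endothelium and 4 of 5 fibroblast markers were higher in left ventricle, with median differences of 1.43, 1.60 and 0.73, and 6, 4 and 4 without run 3. The summed macrophage markers were 417.5 to 946.0 in quadriceps and 1172 to 1797 in left ventricle, the endothelium markers 822.9 to 1079 and 2470 to 3453, and the fibroblast markers 2672 to 6253 and 7642 to 8542. None of these markers was at the floor on every array of a group, and their part in the tissue differences was not tested.

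**Figure D2:**
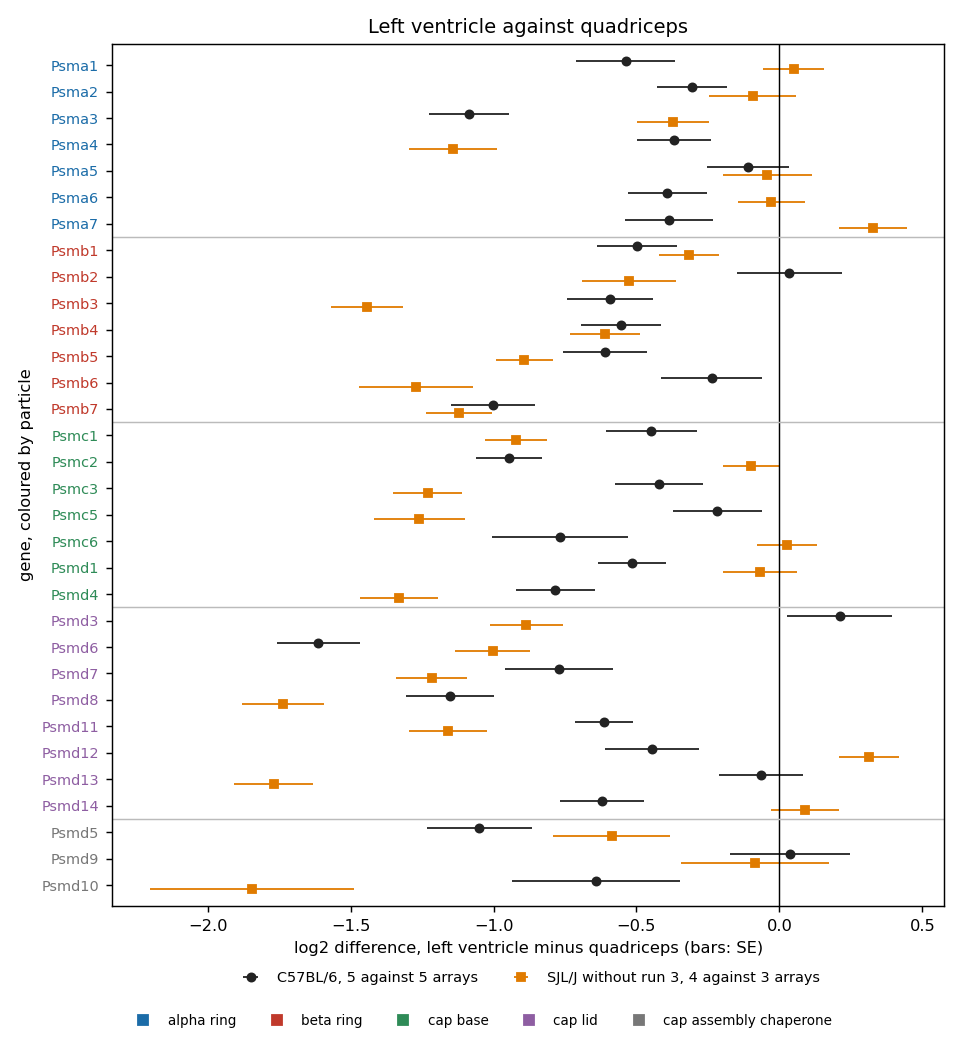
Points are log2 differences between left ventricle and quadriceps for each tested gene, with bars of 1 SE, in C57BL/6 (circles, 5 against 5 arrays) and in SJL/J without the arrays of run 3 (squares, 4 against 3 arrays). Most points of both strains lie left of 0, led in C57BL/6 by Psmd6 at -1.61, while Psma7 and Psmd12 lie right of 0 in SJL/J. In neither set of points did a run hold both tissues, and in the SJL/J set the Gapdh ratios of left ventricle and quadriceps did not overlap.

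The same tissue comparison in SJL/J mice was made on arrays that include 3 of run 3. On all 10 arrays, 18 of the 32 genes were lower in left ventricle and 0 higher, where 16.2% of all tested genes were called lower and 21.6% higher. The median difference of the 32 was -0.60, against 0.057 for all tested genes. Without the 3 arrays of run 3, 21 genes were lower and 2 higher, against 23.9% and 30.5% of all tested genes, and the median was -0.75. The left ventricle arrays then all lay in run 4 and the quadriceps arrays all in run 5. Their Gapdh ratios were 0.1008 to 0.3346 and 0.5022 to 0.6634, so tissue, run and RNA integrity cannot be told apart there. With the Gapdh ratio as a covariate on all 10 arrays, 7 members were called lower and the median was -0.38. In that fit 568 genes in all were called, 290 of them lower. Within run 3 itself, which held 1 left ventricle and 2 quadriceps arrays, 27 of the 32 differences were negative with a median of -0.20, and as a block the run left 0 members called among 17 genes called in all. These 2 quadriceps arrays carried heart transcripts and the left ventricle array carried limb muscle transcripts. The contrast within run 3 thus sets arrays with transcripts of both tissues against each other. How these transcripts came onto the arrays was not tested.

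Psmb7, the trypsin-like subunit, had the smallest p of the 32 in SJL/J. It read 1335, 1877, 1764, 1724 and 1208 on SJL/J quadriceps arrays 1 to 5 and 898, 769.9, 961, 855 and 724 on left ventricle arrays 1 to 5, with no overlap and a difference of -0.90 ± 0.15 (limma adjusted p = 0.00133). Psmd6 read 1621, 2081, 2089, 2260.4 and 1768 and 1246, 1264, 1035, 1142 and 872, a difference of -0.82 ± 0.14. Psmd11 read 589.5, 852, 1157, 958 and 703 in quadriceps and 435, 433, 378, 479 and 475 in left ventricle (-0.92 ± 0.17). The quadriceps arrays 1 and 5 were the lowest of their group for Psmb7, Psmd6 and Psmd11 alike. Psmd7 read 745, 1147, 1279.5, 1285 and 884 and 642, 556, 611, 530.2 and 445 (-0.92 ± 0.17). Psmd8 read 406, 957, 752, 843 and 284 and 231, 236, 275, 216 and 297: its difference was -1.24 ± 0.30 on all arrays and -1.74 ± 0.14 without run 3, and quadriceps array 5 lay within the range of the left ventricle arrays. The beta-ring subunit Psmb3 was lower, with a difference of -0.95 ± 0.27 on all arrays and -1.44 ± 0.12 without run 3. The chaperone Psmd10, whose mean was 74.7 in SJL/J quadriceps and 27.4 in left ventricle, is among the genes counted as lower with and without run 3. It was tested only because its quadriceps level here passed the filter, so its difference (-1.45 ± 0.34, and -1.84 ± 0.36 without run 3) is a description. The genes higher in left ventricle without run 3 were Psma7 (0.33 ± 0.12, limma adjusted p = 0.042) and Psmd12 (0.31 ± 0.11, limma adjusted p = 0.0311). All 7 beta genes were lower without run 3, against 2 of 7 alpha genes (Psma3 and Psma4), 4 of 7 base genes, 6 of 8 lid genes and 2 of 3 chaperones, 1 of these being Psmd10. The tissue differences in the 2 strains use different arrays, and whether they differ is given by the interaction below.

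The next comparison asks how the hearts of SJL/J mice differ from normal hearts. In left ventricle the proteasome genes moved in both directions: 8 of 32 were higher in SJL/J, where 17.9% of all tested genes were, and 10 were lower, where 16% were. The higher genes were Psma3, Psma7, Psmb1, Psmb4, Psmc2, Psmc6, Psmd12 and Psmd14, and the lower ones were Psmb2, Psmb6, Psmc1, Psmc3, Psmc5, Psmd3, Psmd4, Psmd7, Psmd11 and Psmd13. By particle, 6 of 7 tested base genes, 6 of 8 lid genes, 4 of 7 beta genes, 2 of 7 alpha genes and 0 of 3 chaperones were called. Both alpha genes were higher, and the beta ring, the base and the lid each held genes of both directions. The median difference was -0.08, against 0.04 for all tested genes, and 6 of the higher and 7 of the lower genes had groups without overlap, where 10.8% and 11.3% of all tested genes did. RNA integrity, run and strain moved together here, since every SJL/J array had a lower Gapdh ratio than every C57BL/6 array and all but 1 array of each strain lay in runs that held only that strain. With the Gapdh ratio as a covariate 0 members and 33 genes in all were called, and with the run as a block, which rests on 1 array of each strain, 0 members and 48 genes; the part of RNA integrity and run in these differences cannot be told apart from that of strain.

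Among lid genes, the structural subunit Psmd13 differed most. It read 183, 224, 224, 265 and 214 on C57BL/6 left ventricle arrays 1 to 5 and 118, 87.1, 81.0, 84.1 and 83.7 on SJL/J arrays 1 to 5. The difference was -1.30 ± 0.14 (limma adjusted p = 3.42e-05), or 2.46-fold lower, and SJL/J array 1, the array of run 3, was the nearest to the C57BL/6 values. Psmd3, another structural subunit, read 331, 333, 285, 339.8 and 318 and 264, 149.5, 167, 141 and 161 (-0.90 ± 0.16, limma adjusted p = 0.00104), and there too SJL/J array 1 was nearest. Psmd11 read 804, 755, 797, 765 and 721 and 435, 433, 378, 479 and 475 (-0.81 ± 0.09, limma adjusted p = 4.4e-05). These 3 genes had no overlap between the strains. Psmd7 had a smaller difference of -0.44 ± 0.16, at 515, 982, 778, 828 and 732 and 642, 556, 611, 530.2 and 445 with overlapping groups. In the opposite direction, Psmd14, the deubiquitinase of the lid, read 479, 470.4, 469, 358 and 436 in C57BL/6 and 579.5, 747, 732, 587 and 679.8 in SJL/J (0.59 ± 0.12, limma adjusted p = 0.00208). The scaffold Psmd12 read 661, 694, 702, 636 and 557 and 916, 909, 984, 1038 and 1110.3 (0.61 ± 0.10, limma adjusted p = 0.000543), and both were higher on every SJL/J array. Psmd6, at 1246, 1264, 1035, 1142 and 872 on SJL/J arrays, and Psmd8, at 231, 236, 275, 216 and 297, were not called between the strains in left ventricle (0.15 ± 0.11 and 0.07 ± 0.12).

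The ATPases of the base also moved in both directions. Psmc6 read 1864, 1140.3, 1672, 1560.3 and 1732 in C57BL/6 and 2293, 2602, 2407, 2454 and 2862 in SJL/J left ventricle, a difference of 0.68 ± 0.13 (limma adjusted p = 0.00156). Psmc2 read 692, 671, 668, 745 and 645 and 859, 818, 873, 899.5 and 907 (0.35 ± 0.08, limma adjusted p = 0.00599), and both genes were higher on every SJL/J array. Psmc5 read 474, 504, 556, 451 and 580.2 and 442, 273, 356, 321 and 224 (-0.70 ± 0.16, limma adjusted p = 0.00577). Psmc1 read 564, 593, 684, 670.2 and 596 and 490.4, 407, 399, 401 and 336 (-0.62 ± 0.11, limma adjusted p = 0.00119), so that both of these ATPases were lower on every SJL/J array. Psmc3 read 639, 529.9, 761, 755 and 726 and 537, 398, 390.3, 369 and 453 (-0.67 ± 0.13), and its groups overlapped. The ubiquitin receptor Psmd4 read 495, 489, 608, 589.8 and 523 and 369.8, 291, 347, 371 and 303 (-0.69 ± 0.11, limma adjusted p = 0.000557), without overlap, and Psmd1 was not called (0.15 ± 0.10).

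In the core, Psma3 read 2407, 2282, 2121, 1915 and 2025 in C57BL/6 and 2962, 3033, 3397, 3567 and 4199.6 in SJL/J left ventricle. Its difference of 0.67 ± 0.11 (limma adjusted p = 0.000685) made it 1.59-fold higher, on every SJL/J array. Psma7 read 668, 849, 1023, 770.1 and 767 and 989, 1080.4, 1307, 1043 and 1030.2 (0.43 ± 0.12), and C57BL/6 array 3 reached into the SJL/J range. The other alpha genes were not called: Psma1 was at -0.15 ± 0.10, Psma2 at -0.07 ± 0.12, Psma4 at -0.09 ± 0.14, Psma5 at 0.06 ± 0.14 and Psma6 at -0.15 ± 0.14. Psma1 read 362, 379.7, 419.9, 360.5 and 360.5 on the SJL/J arrays and Psma6 read 1623, 2148, 2343, 2439 and 2005. Of the structural beta subunits, Psmb2 read 522, 655, 614, 634 and 541 in C57BL/6 and 317, 359, 341, 352 and 298 in SJL/J, lower on every SJL/J array (-0.83 ± 0.10, limma adjusted p = 7.83e-05). Psmb1 read 1071, 1167, 1082, 1037 and 1134 and 1176, 1463, 1570.4, 1360.4 and 1648 (0.39 ± 0.10) and was higher on every SJL/J array. Psmb4 read 1406, 1622, 1431, 1333 and 1398 and 1770.1, 1761, 1524, 2078 and 1951 (0.33 ± 0.10), with overlap. Among the catalytic subunits, the caspase-like Psmb6 read 474, 728, 493, 401 and 579 and 439, 320.3, 296, 383 and 233 (-0.68 ± 0.18, limma adjusted p = 0.0131), with overlap, while Psmb5 (-0.26 ± 0.11) and Psmb7 (0.08 ± 0.10) were not called. Psmb3 (-0.24 ± 0.12) and the chaperones Psmd5 (0.26 ± 0.18), Psmd9 (-0.08 ± 0.22) and Psmd10 (-0.41 ± 0.32) were not called either. Leaving out the 2 arrays of run 3 kept the same 18 calls, against 18.6% of all tested genes higher and 17.3% lower. Also between the strains in left ventricle, 4 of 8 macrophage markers were higher in SJL/J and 1 lower, 2 of 5 fibroblast markers were higher and 2 of 5 endothelium markers lower (4 and 1, 2, and 3 without run 3). The summed macrophage markers were 1172 to 1797 in C57BL/6 and 1835 to 2787 in SJL/J, without overlap, while the fibroblast markers (7642 to 8542 and 7554 to 11863) and the endothelium markers (2470 to 3453 and 2269 to 2933) overlapped. Their part in the proteasome differences was not tested. When 1 array was left out at a time, Psmd7 lost its call in 8 of 10 fits (adjusted p up to 0.107), and Psmb4 without C57BL/6 left ventricle array 4 (0.31, limma adjusted p = 0.0564) or SJL/J array 4 (0.28, limma adjusted p = 0.0588).

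**Figure D3:**
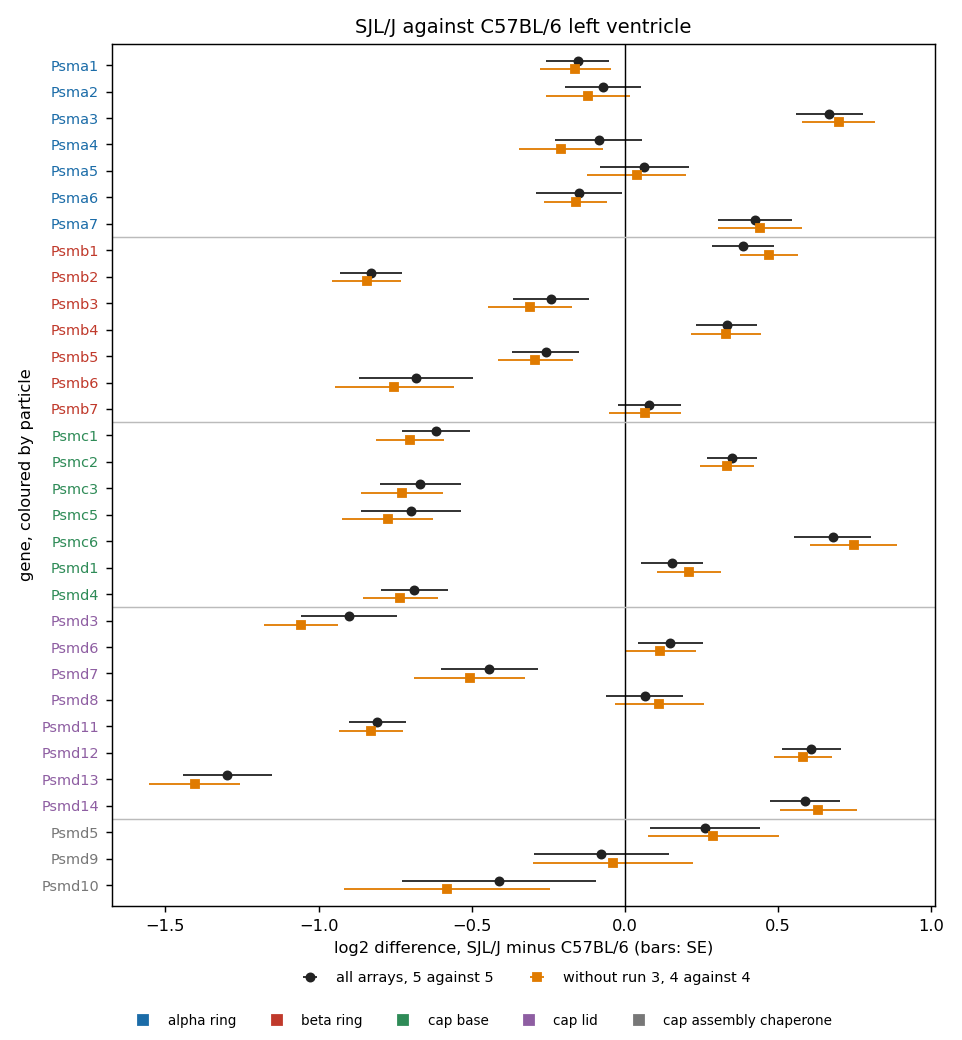
Points are log2 differences between SJL/J and C57BL/6 left ventricle for each tested gene, with bars of 1 SE, on all arrays (circles, 5 against 5) and without the arrays of run 3 (squares, 4 against 4). Genes lie on both sides of 0 within the beta ring, the cap base and the cap lid, from Psmd13 at -1.30 to Psmc6 at 0.68, and the 2 sets of points nearly coincide.

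The corresponding question in limb muscle is how quadriceps of SJL/J mice differs from normal quadriceps. On all arrays 4 of the 32 genes were called lower in SJL/J and 0 higher, at 12.5% against 11.8% of all tested genes called in either direction, 5.43% being lower and 6.38% higher. The called genes were the alpha subunits Psma1 and Psma6, the ATPase Psmc2 and the lid subunit Psmd6, and 28 genes were not called. The median difference was -0.10, against 0.09 for all tested genes, and 23 of the 32 differences were negative. Without SJL/J quadriceps arrays 1 and 5, which carried heart transcripts, none of the 4 was called. The genes then called were the beta subunit Psmb3 and the lid subunit Psmd8, both higher, against 5.10% of all tested genes higher and 4.67% lower. These 2 higher of 32 genes lie near the share of all tested genes. Of the 32 differences, 16 were negative with a median of -0.02.

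Psma1 read 317, 366, 372, 361 and 375 on SJL/J quadriceps arrays 1 to 5, below each of the C57BL/6 quadriceps values given above. Its difference was -0.76 ± 0.18 (limma adjusted p = 0.0168) on all arrays and -0.73 ± 0.21 (limma adjusted p = 0.0523) without run 3. The C57BL/6 array nearest to the SJL/J values was array 4, at 399, which was hybridised in the same run as SJL/J arrays 2 to 4. Psmc2 read 893, 987, 855, 969 and 879 in SJL/J, all below the C57BL/6 arrays (-0.53 ± 0.13, limma adjusted p = 0.025; without run 3 -0.49 ± 0.15, limma adjusted p = 0.0659). Psmd6, whose SJL/J values were given above with the tissue difference, was also lower on every SJL/J array (-0.64 ± 0.18, limma adjusted p = 0.0349; without run 3 -0.51 ± 0.19, limma adjusted p = 0.127). Psma6 read 1834, 2586, 2078, 2185 and 2005 in SJL/J, again below every C57BL/6 array (-0.52 ± 0.14, limma adjusted p = 0.0346; without run 3 -0.42 ± 0.15, limma adjusted p = 0.105). So the 4 genes kept their sign and most of their size without run 3 and ended above the threshold with 3 SJL/J arrays. C57BL/6 quadriceps arrays 1, 2, 3 and 5 lay in a run and a chip lot that held no SJL/J array. In quadriceps, strain can therefore be told apart from run and chip lot only through C57BL/6 array 4. Non-overlapping groups with SJL/J lower were found for 5.36% of all tested genes.

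For the genes called without run 3, SJL/J quadriceps arrays 1 and 5, which carried the most heart transcripts of their group, read apart from arrays 2 to 4. Arrays 1 and 5 also differed from these in run and had lower Gapdh ratios (0.2675 and 0.4885 against 0.5022 to 0.6634). The cause of the division was not tested. Psmb3 read 1665, 1583 and 1673 on SJL/J quadriceps arrays 2 to 4, 682 and 753 on arrays 1 and 5, and 1087, 1250.3, 1256, 1054 and 838 in C57BL/6, a difference of 0.12 ± 0.27 on all arrays and 0.59 ± 0.17 without run 3 (limma adjusted p = 0.0478). Psmd8 read 957, 752 and 843 on arrays 2 to 4 and 406 and 284 on arrays 1 and 5, a difference of 0.15 ± 0.31 on all arrays and 0.68 ± 0.18 without run 3 (limma adjusted p = 0.0445). Both genes were thus higher than every C57BL/6 quadriceps array on arrays 2 to 4, and lower than every one of them on arrays 1 and 5, for Psmd8 on array 1 only just. Other genes described here showed the same division, the reverse or none. Psmd13 read 101, 269.5, 274, 317 and 206 on SJL/J quadriceps arrays 1 to 5, Psmb2 read 228, 389, 464, 630.2 and 477, and Psmd4 read 425, 786, 735, 959 and 565. Psmb4 read 1331, 2603, 2946, 2780.2 and 1400.2, Psmc1 read 478, 759, 692, 736 and 564, and Psmc3 read 476, 879, 879, 1082 and 663. In these 6 genes array 1 was the lowest, and array 5 was below arrays 2 to 4 in all of them but Psmb2. Psmc5 (466, 712, 650.0, 716 and 547), Psmb6 (382, 640.3, 632, 968 and 635) and Psmd3 (223, 261, 290.3, 306 and 258) were lowest on array 1 as well. Psma3 (3965, 4435, 4416, 4856 and 3719) was lower on arrays 1 and 5 than on arrays 2 to 4, with its lowest value on array 5. By contrast, Psma7 (1067, 859, 821, 984 and 940.1) and Psmd12 (1199, 878, 765, 792 and 935) had their highest value on array 1. Psmd12 was higher on arrays 1 and 5 than on each of arrays 2 to 4. Psmb1 (1863, 1762, 1999, 1879.6 and 1976), Psmd14 (617, 583, 668, 679.7 and 591) and Psmc6 (2643, 2373, 2475, 2752 and 2290.0) had arrays of run 3 within or close to the range of the others.

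Other measures moved with strain in quadriceps. Of 8 tested macrophage markers 6 were higher and 0 lower in SJL/J quadriceps (5 and 0 without run 3), and their summed intensity was 417.5 to 946.0 in C57BL/6 and 1650 to 3013 in SJL/J, with none at the floor on every array of a group. Of 3 fat markers 1 was higher and 0 lower (2 and 0 without run 3). Their sum was 972.5 to 1486.8 in C57BL/6 and 850.1 to 3016.8 in SJL/J, or 1907.9 to 3016.8 without run 3. The part of these markers in the differences of the proteasome genes was not tested. With the Gapdh ratio as a covariate 0 members were called, among 334 genes in all, and with the run as a block 1 member was lower (Psmd6, -0.97 ± 0.19, limma adjusted p = 0.00665) and 2 were higher (Psmc6, 0.84 ± 0.21, and Psma4, 0.89 ± 0.21). That block rests on run 5, with 3 SJL/J arrays and C57BL/6 array 4, in which 17 of the 32 differences were negative with a median of -0.02. Leaving out 1 array at a time, 2 to 6 members were called: Psma1 was called in all 10 fits, Psmc2 in all but those without SJL/J array 3 (-0.50) or C57BL/6 array 1 (-0.47) or 2 (-0.48), Psmd6 in 4 and Psma6 in 2. With the run as a block, however, Psma1 was at -0.12 ± 0.21 (limma adjusted p = 0.713), Psmc2 at -0.32 ± 0.20 (limma adjusted p = 0.278) and Psma6 at -0.41 ± 0.19 (limma adjusted p = 0.154).

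**Figure D4:**
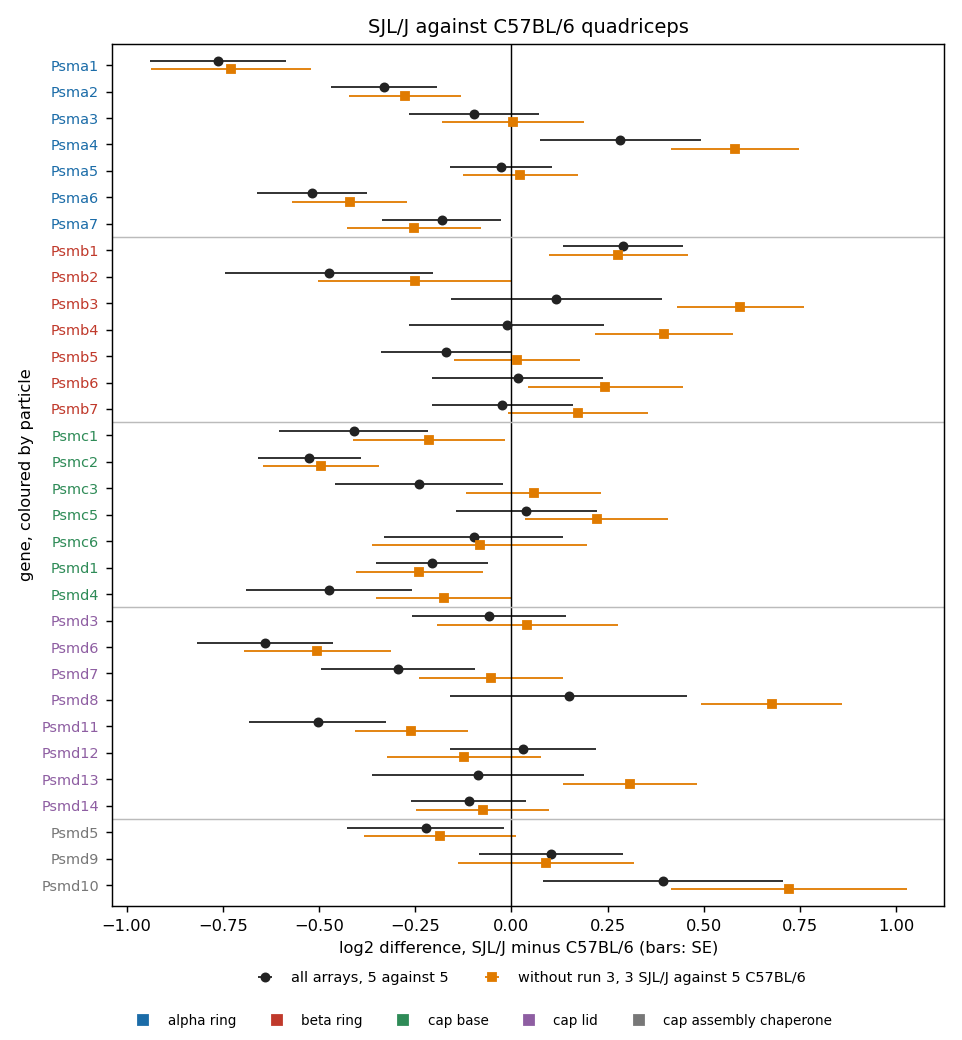
Points are log2 differences between SJL/J and C57BL/6 quadriceps for each tested gene, with bars of 1 SE, on all arrays (circles, 5 against 5) and without the arrays of run 3 (squares, 3 SJL/J against 5 C57BL/6). The squares of Psmb3 and Psmd8 lie at 0.60 and 0.68, right of their circles, while Psma1 is far left of 0 in both sets.

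Whether the strain difference was the same in both tissues was tested by the interaction, the difference in quadriceps minus that in left ventricle, on all 20 arrays. It was called for 9 of the 32 genes, or 28.1% against 16.2% of all tested genes: 6 were below 0, where 6.88% were, and 3 above, where 9.35% were. Below 0 were Psmc2 (-0.87 ± 0.14, limma adjusted p = 0.000418), Psmd6 (-0.79 ± 0.20, limma adjusted p = 0.0108) and Psma3 (-0.76 ± 0.19, limma adjusted p = 0.00939). Psmd14 (-0.70 ± 0.18, limma adjusted p = 0.0126), Psma1 (-0.61 ± 0.20, limma adjusted p = 0.042) and Psma7 (-0.61 ± 0.19, limma adjusted p = 0.0373) were below 0 too. Above 0 were Psmd13 (1.21 ± 0.32, limma adjusted p = 0.0139), Psmd3 (0.84 ± 0.26, limma adjusted p = 0.0317) and Psmc5 (0.74 ± 0.25, limma adjusted p = 0.0493). Psmc2 had opposite signs in the 2 tissues, with -0.53 in quadriceps and 0.35 in left ventricle, both called. Psmd13, by contrast, differed in left ventricle (-1.30) and hardly in quadriceps (-0.09, not called). The strain comparison in left ventricle and the tissue comparison in C57BL/6 share the C57BL/6 left ventricle arrays, so their values are only set side by side. On all 20 arrays no beta gene and no chaperone was called in the interaction. Without run 3, 13 genes were called, 8 above and 5 below 0, where 11.8% and 8.74% of all tested genes were. The calls then included 2 of 7 beta genes and 1 of 7 alpha genes above 0, and again 0 of 3 chaperones. Psmc2 (-0.83), Psma3 (-0.69), Psma7 (-0.69), Psmd14 (-0.71), Psmd13 (1.71), Psmd3 (1.10) and Psmc5 (0.997) remained, while Psmd6 (-0.62, limma adjusted p = 0.0547) and Psma1 (-0.57, limma adjusted p = 0.106) did not. In the 20 fits that left out 1 array, 5 to 10 members were called, and Psmc5 lost its call in 17, Psma1 in 16 and Psmd3 and Psma7 in 10 each (log2 0.62 to 0.86 for Psmc5). The count was 5 without any of C57BL/6 left ventricle array 4, SJL/J left ventricle arrays 2, 3 or 4, SJL/J quadriceps array 3 or C57BL/6 quadriceps array 3. With the run as a block only Psmd6 was called (-1.25, limma adjusted p = 0.0211), and Psma1 was at -0.001.

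**Figure D5:**
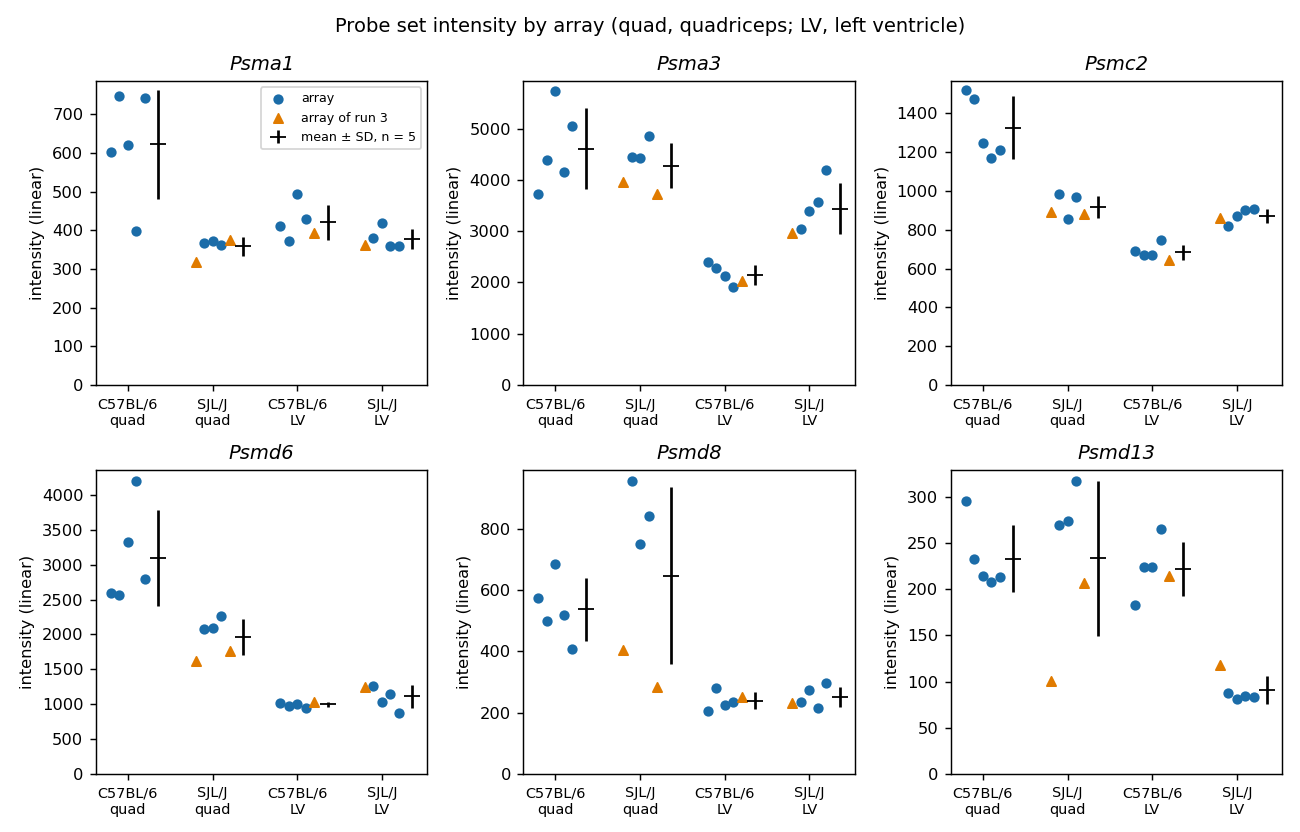
Points are the linear intensity of 6 proteasome genes on each of the 5 arrays of a group, triangles mark the arrays of run 3, and the bars give the mean ± SD. Psmd6 and Psmd8 are higher in quadriceps than in left ventricle, except that Psmd8 on SJL/J quadriceps array 5 lies within the left ventricle range. Psma3 and Psmc2 are higher in SJL/J than in C57BL/6 left ventricle. Psmd13 is at 81.0 to 117.6 in SJL/J left ventricle against 183 to 265 in C57BL/6.

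Some genes are read by a further probe set, and not all of these followed the first. Psmb1 was lower in C57BL/6 left ventricle than in quadriceps by both (-0.50 ± 0.14 and -0.54 ± 0.15), but its second probe set was not called between strains in left ventricle (0.04 ± 0.12). A second probe set of the catalytic Psmb5 was not called in the tissue comparison of C57BL/6 (0.15 ± 0.27), where the first was (-0.61 ± 0.15). For Psmc3, the other probe sets gave -1.11 ± 0.14 and -0.14 ± 0.16 between strains in left ventricle, the second of which was not called, against -0.67 for the one read. Both were lower in C57BL/6 left ventricle than in quadriceps (-0.62 ± 0.17 and -0.63 ± 0.16). Psmd11 had a probe set that ran the opposite way to the one read, at 1.83 ± 0.24 in the tissue comparison of C57BL/6 (limma adjusted p = 5.04e-05) and 1.18 ± 0.31 between strains in quadriceps (limma adjusted p = 0.031). The remaining probe set had the sign of the one read, at -0.44 ± 0.27 between C57BL/6 tissues (not called), -0.81 ± 0.17 between SJL/J tissues (limma adjusted p = 0.00393) and -0.59 ± 0.17 between strains in left ventricle. The 3 probe sets of Psmd11 thus disagree on the C57BL/6 tissue difference. The name of the opposing one marks relaxed rules of probe selection. It read 25.7 to 160.3 over all arrays, against 377.7 to 1280.8 for the one read.

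Genes that work with the proteasome were counted from lists, with the genes that are on the array and bright enough. Between the C57BL/6 tissues, 9 of 12 genes for ubiquitin and its carriers were lower in left ventricle and 0 higher, the same direction as the subunits. They include the ubiquitin-conjugating enzymes Ube2d3 (-1.46 ± 0.14), Cdc34 (-1.17 ± 0.14) and Ube2g1 (-1.10 ± 0.15) and the shuttle factor Rad23b (-1.27 ± 0.14). Ube2r2 (-1.13), Ube2b (-0.90), Ubqln2 (-0.54), Ubqln1 (-0.47) and the segregase Vcp (-0.41) were lower too. The immunoproteasome genes ran the opposite way to the constitutive genes: Psmb8 (1.66 ± 0.20), Psmb9 (2.73 ± 0.50), Psmb10 (1.37 ± 0.20) and the activator Psme1 (1.58 ± 0.18) were all higher in left ventricle. A list of other activators and assembly factors, called assembly factors below, had 10 tested genes. Of these 3 were higher (Psmg4 at 1.01, Psmg3 at 0.90 and Sem1 at 0.53) and 3 lower (Ecpas at -1.04, Psme4 at -0.87 and Pomp at -0.60). Sem1 is itself a subunit of the cap lid, which the symbol rule does not take, and it ran the opposite way to the called lid genes. Pomp is the maturation factor of the core, and Ecpas binds the cap. Of 7 deubiquitinases Usp5 was higher (0.61) and Usp2 (-0.93) and Uchl5 (-0.85) lower, and of 7 ligases and regulators only Foxo3 was called (0.76). Without run 3 these counts were the same except that 1 deubiquitinase in place of 2 was lower. In SJL/J the same lists had, between left ventricle and quadriceps, 2 higher and 6 lower carriers, 3 higher and 0 lower immunoproteasome genes, 2 higher and 1 lower assembly factors, 0 higher and 4 lower deubiquitinases, and 1 higher and 2 lower regulators, among them Nfe2l1 (-0.64). Without run 3 the counts were 2 and 5, 3 and 0, 3 and 4, 1 and 5, and 2 and 2 in the same order. Of all tested genes 21.6% were higher and 16.2% lower here (30.5% and 23.9% without run 3), and 30.6% and 19.9% in C57BL/6. The 2 higher and 1 lower of 10 assembly factors in SJL/J lie near these shares, as do the 3 higher of 10 in C57BL/6.

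Between the strains in quadriceps, where 0 constitutive genes were higher, the immunoproteasome genes Psmb9 (3.03 ± 0.50, limma adjusted p = 0.00336) and Psmb8 (0.86 ± 0.25, limma adjusted p = 0.0427) and the activator Psme1 (1.49 ± 0.19, limma adjusted p = 0.000896) were higher in SJL/J, and Psmb10 was not called (0.68 ± 0.21). Without run 3, 2 of the 4 were called. The transcription factor Nfe2l1 was higher (0.57 ± 0.14, limma adjusted p = 0.0202; without run 3 0.64, limma adjusted p = 0.0227). Vcp was higher (0.90) and Ube2d3 lower (-0.89) among 12 carriers, where 6.38% and 5.43% of all tested genes were, and 0 of 10 assembly factors and 0 of 7 deubiquitinases were called. Without run 3, 1 carrier was higher and 2 lower, and 1 assembly factor was higher. In left ventricle, where 17.9% of all tested genes were higher and 16% lower, 6 of 12 carriers were higher, among them Vcp (0.78), Ubqln2 (0.68) and Ube2r2 (0.56), and Cdc34 was lower (-0.78). Of 7 deubiquitinases 4 were lower, Otub1 (-1.16), Usp5 (-0.89), Uchl1 (-0.86) and Usp4 (-0.35), and Uchl5, which docks on the cap, was higher (0.98). Psmb9 (0.87) was the 1 called gene of its list, Ecpas was higher (0.38) and Psmg3 lower (-0.55), and of the regulators Nfe2l2 was higher (0.30) and Foxo3 lower (-0.54). Without run 3, 8 carriers were higher and 2 lower, 4 deubiquitinases were lower and 1 higher, 1 assembly factor was higher and 2 lower, and 1 regulator was higher and 3 lower. The interaction was called for Nfe2l1 (0.85), for 3 of 4 immunoproteasome genes, all above 0, for 6 of 12 carriers, all below 0, for 2 of 7 deubiquitinases, both above 0, and for 1 assembly factor above and 1 below 0, where 9.35% of all tested genes were above and 6.88% below. Without run 3 it was called for 2 immunoproteasome genes and 3 deubiquitinases above 0, for 1 carrier above and 7 below 0, and for 2 assembly factors below 0.

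Within groups the subunits varied together on some arrays, as the following correlations describe over 20 arrays after group means were taken out. The median Pearson correlation between pairs of the 32 genes was 0.17, with 66.5% of 496 pairs positive, against 0.003 and 50.3% for all pairs of tested genes. Without the 4 arrays of run 3 the median was 0.05 and 54.4% of pairs were positive, over 16 arrays, so most of the shared variation lay in those arrays. With the mean of the other members, Psmb3 correlated most (0.96, and 0.80 without run 3) and Psmd12 least over the 20 arrays (-0.49, and -0.21 without run 3). Without run 3 the least was Psmd10 (-0.64), which was at 0.18 over the 20 arrays. The 5 genes outside the family most like its mean were Banf1 (0.93), Cdc34 (0.92), Lamtor4 (0.91), Drap1 (0.91) and Sqstm1 (0.91), at 0.63 to 0.75 without run 3. They were picked for this likeness, and what the arrays share includes run, RNA integrity and transcripts of the other tissue.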

How the data were processed

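RNA from 20 tissue samples was hybridised to 1 Affymetrix MG_U74Av2 array each, from 8 µg of total RNA, by standard Affymetrix procedures per the labels. The deposited values are 1 linear intensity per probe set and array, and their trimmed means lay between 199.4 and 199.9 on the 20 arrays. How the authors summarised, scaled and background-corrected the probes is not given in the labels or headers read. Chip lot and hybridisation time come from the deposited experiment reports, per the file headers, and 1 array of run 3 (SJL/J quadriceps 1) lists another fluidics protocol. Of 12488 probe sets, 10833 have 1 gene symbol, 396 have several and 1193 none, and 66 are controls. Deposited intensities under the 5th percentile (3.1) were raised to it and log2 was taken. Probe sets whose mean log2 exceeded that of the median signal (68.8) in at least 1 group were kept, and the brightest was read for each gene, which left 5392 genes. The R package limma 3.58.1 (R 4.3.3; lmFit, then eBayes with a trend) was fitted to the 10 arrays of each comparison and to all 20 for the interaction, with Benjamini-Hochberg adjustment over 5392 genes. Strain differences are SJL/J minus C57BL/6, tissue differences left ventricle minus quadriceps, and the interaction is the strain difference in quadriceps minus that in left ventricle. Each group has 5 biological replicates per the labels, which sets the precision. The fits were tested on simulated data with known changes. Runs were separated by gaps of over 30 minutes between hybridisation times. Every member was to be named. Values on every array were given for members called between strains or in the interaction and for the 4 with the smallest p in each comparison, and for lists the called genes. The members, lists and tests were chosen with earlier results of these data known. Figures were drawn with matplotlib 3.10.9, with pandas 2.3.3 under Python 3.11.15. Alternatives covered scaling, floor, filter, probe sets, run, chip lot, RNA integrity, the replicate number as a block, the variance trend and leaving out each array. Same-numbered arrays of different groups did not deviate together (correlations of -0.26 to 0.13), so the numbers were not used as pairs.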

Additional observations from a re-analysis of the deposited data

Results flagged for a closer look

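In 7 of 128 groups of 5 intensities, 1 array stood apart from the other 4 by Dixon's criterion, and chance sets apart about 1 in 20 groups. Psmd3 read 264.0 on SJL/J left ventricle array 1, against 141 to 167 on the others, and Psmd13 read 117.6 on the same array, against 81.0 to 87.1. That array belongs to run 3 and carried limb muscle transcripts. Psma1 read 317.0 on SJL/J quadriceps array 1, against 361.0 to 375, and Psma2 read 1180.2 on it, against 1385 to 1472. That array carried heart transcripts. Psma2 also stood apart on C57BL/6 quadriceps array 4 at 1442.8, against 1778 to 1884, and this array shares a run with SJL/J quadriceps arrays. Psmb5 read 1586.6 on C57BL/6 quadriceps array 1, against 1064 to 1125, and Psmb3 read 488.2 on SJL/J left ventricle array 5, against 629.7 to 676.

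Strain differences that differed between the tissues, by the interaction in limma, were -0.87 for Psmc2, -0.79 for Psmd6, -0.76 for Psma3, -0.70 for Psmd14, -0.61 for Psma1, -0.61 for Psma7, 1.21 for Psmd13, 0.84 for Psmd3 and 0.74 for Psmc5. The strains differed in RNA integrity and run in both tissues, and the part of these in the interaction was not tested beyond the alternatives given next.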

How the results depend on the processing

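Of the values recomputed for called genes, 1336 kept direction and call, 268 kept direction and lost the call, and 11 changed sign. In quadriceps, members called between strains numbered 2 with the chip lot as a block (1 higher, 1 lower), 2 without run 3 and 0 with the Gapdh ratio in the fit, and 2 to 6 when 1 array was left out, against 4. The median was -0.25 with median centring. In left ventricle 0 were called with the run as a block and 0 with the Gapdh ratio, and 16 to 18 when 1 array was left out. With the Gapdh ratio Psmd7 (0.27), Psmc1 (0.039), Psmc5 (0.37), Psmb1 (-0.048) and Psma3 (-0.031) changed sign. Between C57BL/6 tissues the median was -0.40 with quantile normalization and -0.73 with centring, and 11 were called with the chip lot as a block and 10 with the run as a random block, which was added after seeing the data. When 1 array was left out, 17 to 24 were called, and Psmd12, Psmc1, Psma4, Psmc3 and Psma6 lost their calls in 9, 7, 7, 6 and 4 fits (adjusted p up to 0.0937). Psma1 lost it without C57BL/6 quadriceps array 2 (-0.46). With the chip lot block Psmc1 (0.068), Psmc6 (0.16), Psmd12 (0.080) and Psma1 (0.069) changed sign. Between SJL/J tissues the median was -0.20 with the run as a block, -0.75 without run 3 and -0.38 with the Gapdh ratio, and 0 and 7 were called with the run as a block and with the Gapdh ratio, and 16 to 19 when 1 array was left out, where Psmd5 and Psma4 lost their calls in 8 and 5 fits. With the run as a block Psmd3 (0.14) and Psma4 (0.13) changed sign. In the interaction 1 was called with the run as a block, 3 with the chip lot block and 5 to 10 when 1 array was left out, and the median was -0.16 with centring. The cause of these changes was not tested, except that a left-out array leaves fewer arrays and a block fewer residual degrees of freedom.

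Median centring moved the median of all tested genes by -0.15 in quadriceps, -0.20 between C57BL/6 tissues and -0.15 in the interaction, and the share of calls that were higher from 54.0% to 31.8%, from 60.6% to 44.1% and from 57.6% to 36.8%. Relative to all genes, the members' median between C57BL/6 tissues was -0.67, which centring cannot move, and -0.45 with quantile normalization. Calls over all genes numbered 741 in quadriceps with the chip lot as a block, of which 70.9% were higher. With the replicate number as a block, which pairs arrays by number alone, 2 members were called between strains in quadriceps, 16 in left ventricle, 18 between C57BL/6 tissues, 17 between SJL/J tissues and 7 in the interaction. Only 1 of the 20 same-number pairs was the best match. Probe sets near the array median, such as that of Psmd10, limit what can be called, and strain differences in sequence under the probes cannot be tested here.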
